A study of Mus musculus with 2 samples.

Results

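The 9 genes followed here are transducers and targets of the interferon response in mouse embryonic stem (ES) cells: Stat2, Irf9, Irf1, Irf7, Gbp2, Isg15, Bst2, Ifitm2 and Ifitm3. They are called the members below. They were taken from a deposited table of 51826 genes by their symbols, and all 9 were found. The table holds 1 library of cells labelled T29I, from a study of ES cells mutated in the PRSS1 gene, and 1 library of cells labelled WT. The sample labels call both v6.5 mouse embryonic stem cells and give both the strain label NBA1-19349. Whether the T29I cells are a single clone, whether the allele is on 1 or both chromosomes, and whether feeder cells were present is not stated in the labels. Values are TPM (transcripts-per-million, an abundance divided by transcript length and scaled to the same sum in each library). Mouse Prss1 encodes a trypsinogen, the precursor of a digestive protease. The genes were chosen from this table with the T29I and WT values in view, so their differences are described and not tested. With 1 library per group there is no spread between cultures, and genotype cannot be told apart from clone, culture and library preparation.

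Interferons are secreted alarm signals of infected cells. Type I interferon binds a receptor whose kinases activate STAT2, which works with IRF9 in the complex ISGF3 at interferon-stimulated response elements (ISREs) of target genes. Interferon gamma acts at another element, the gamma-activated site (GAS), and through the factor IRF1. Pluripotent cells are known to respond weakly to interferon and yet to hold a subset of interferon-stimulated genes, among them IFITM genes, at a high basal level.

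The promoter letters of the members are shown first because the list joins factors that bind such elements with genes that carry them. RefSeq windows on GRCm38.p6, from 250 bases before to 50 after the transcript start, were at hand for 9 of the 9 members; Irf1 and Irf9 had 2 windows each. Searched on both strands, the ISRE core, GAAA repeated after a gap of any 2 bases, was found in 6 members, namely Stat2, Isg15, Gbp2, Bst2, Ifitm2 and Ifitm3, against 3.99% of 27025 genes with a window. The GAS letters TTCNNNGAA, which read the same on both strands, were found in 3 members, Irf1, Bst2 and Ifitm3, against 9.55% of all genes. The same repeat with a gap of 3 bases was found in 0 members and in 3.17% of all genes. These matches describe letters and do not show binding. Capitals mark the matches of 6 windows below, and matches that overlap run together. The windows are those of Stat2 (chr10:128270248-128270547, + strand), Irf1 (chr11:53769764-53770063, + strand), Gbp2 (chr3:142620413-142620712, + strand), Isg15 (chr4:156200769-156201068, - strand), Bst2 (chr8:71537423-71537722, - strand) and Ifitm3 (chr7:141010695-141010994, - strand).
Stat2: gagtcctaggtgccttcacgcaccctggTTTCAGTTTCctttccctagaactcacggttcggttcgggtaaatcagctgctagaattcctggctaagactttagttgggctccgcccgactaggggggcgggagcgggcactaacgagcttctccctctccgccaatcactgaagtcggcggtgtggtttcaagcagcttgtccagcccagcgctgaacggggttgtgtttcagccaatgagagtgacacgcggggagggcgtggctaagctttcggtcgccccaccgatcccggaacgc
Irf1: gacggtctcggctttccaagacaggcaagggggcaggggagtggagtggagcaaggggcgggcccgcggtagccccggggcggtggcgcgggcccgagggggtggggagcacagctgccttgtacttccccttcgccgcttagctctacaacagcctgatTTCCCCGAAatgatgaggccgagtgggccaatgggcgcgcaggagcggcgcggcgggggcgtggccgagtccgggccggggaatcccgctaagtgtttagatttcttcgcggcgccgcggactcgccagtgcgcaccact
Gbp2: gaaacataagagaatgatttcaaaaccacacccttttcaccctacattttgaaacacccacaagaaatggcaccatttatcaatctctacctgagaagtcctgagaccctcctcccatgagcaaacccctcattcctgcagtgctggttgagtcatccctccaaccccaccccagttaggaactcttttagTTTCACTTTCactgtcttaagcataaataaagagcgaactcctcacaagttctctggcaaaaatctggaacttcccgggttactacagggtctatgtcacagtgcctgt
Isg15: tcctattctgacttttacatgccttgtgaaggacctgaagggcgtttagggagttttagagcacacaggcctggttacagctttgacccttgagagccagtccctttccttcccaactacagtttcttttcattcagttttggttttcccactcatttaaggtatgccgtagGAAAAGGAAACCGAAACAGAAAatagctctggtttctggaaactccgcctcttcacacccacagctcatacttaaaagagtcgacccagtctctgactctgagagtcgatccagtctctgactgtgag
Bst2: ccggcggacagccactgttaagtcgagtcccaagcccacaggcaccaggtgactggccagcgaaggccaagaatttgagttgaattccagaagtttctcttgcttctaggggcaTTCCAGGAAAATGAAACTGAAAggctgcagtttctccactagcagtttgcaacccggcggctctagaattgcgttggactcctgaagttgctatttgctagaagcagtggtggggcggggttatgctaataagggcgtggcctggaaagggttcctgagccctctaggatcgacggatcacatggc
Ifitm3: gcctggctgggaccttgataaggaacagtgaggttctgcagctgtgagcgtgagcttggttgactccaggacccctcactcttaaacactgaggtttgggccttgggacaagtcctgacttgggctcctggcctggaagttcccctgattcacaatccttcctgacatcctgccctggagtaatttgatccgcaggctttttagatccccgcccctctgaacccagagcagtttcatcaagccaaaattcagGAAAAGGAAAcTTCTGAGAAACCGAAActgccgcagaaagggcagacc
In Isg15, 3 overlapping ISRE cores began 78, 72 and 66 bases before the start, and in Bst2 a GAS match at 136 bases ran into 2 ISRE cores. The single match of Gbp2 lay on the other strand, 59 bases before the start. Ifitm3 had its 3 matches just after the annotated start. Stat2, which was lower in T29I cells, held an ISRE core as well, and the only match in the first Irf1 window was the GAS letters. No match was found in the windows of Irf7 and Irf9, which says only that these letters are absent there.

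In the T29I library, 6 members were higher by 2-fold or more than in the WT library and 2 were lower by as much, counted relative to the median shift described next and among the 8 members whose mean over the libraries reached 1 TPM. The higher members were the factor Irf1 and the effectors Gbp2, Isg15, Bst2, Ifitm2 and Ifitm3. The lower members were Stat2 and Irf9. Of all 12943 genes that reached this mean, 26.0% were called higher and 22.2% lower by the same rule. The ninth member, Irf7, had a mean of 0.818 TPM and stayed under the filter. Gbp2 and Isg15 passed the filter only through the T29I library, so their direction was fixed by passing it.

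The members have to be read against a trend across all genes, which were mostly lower in TPM in T29I cells, the more so the longer or AT-richer the transcript. The log2 ratio used throughout is that of T29I over WT after adding 1 TPM, which understates differences of low genes. Over the 9375 genes averaging 5 TPM or more its median was -0.90, and this shift is subtracted in values called relative. As deposited, the shortest 20% of protein-coding genes had a median of 0.26 and the longest 20% one of -2.05. The lowest 20% by GC content had a median of -1.78 and the highest 20% one of 0.34. The effectors other than Gbp2 are short: the longest transcript has 655 bases for Ifitm2, 678 for Ifitm3, 756 for Isg15 and 792 for Bst2. It has 2516 bases for Gbp2, 3869 for Irf9 and 4397 for Stat2. A ratio adjusted for length and GC content, taken as the residual of a quadratic fit over 9100 protein-coding genes, is therefore given beside each relative value.

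**Figure D1:**
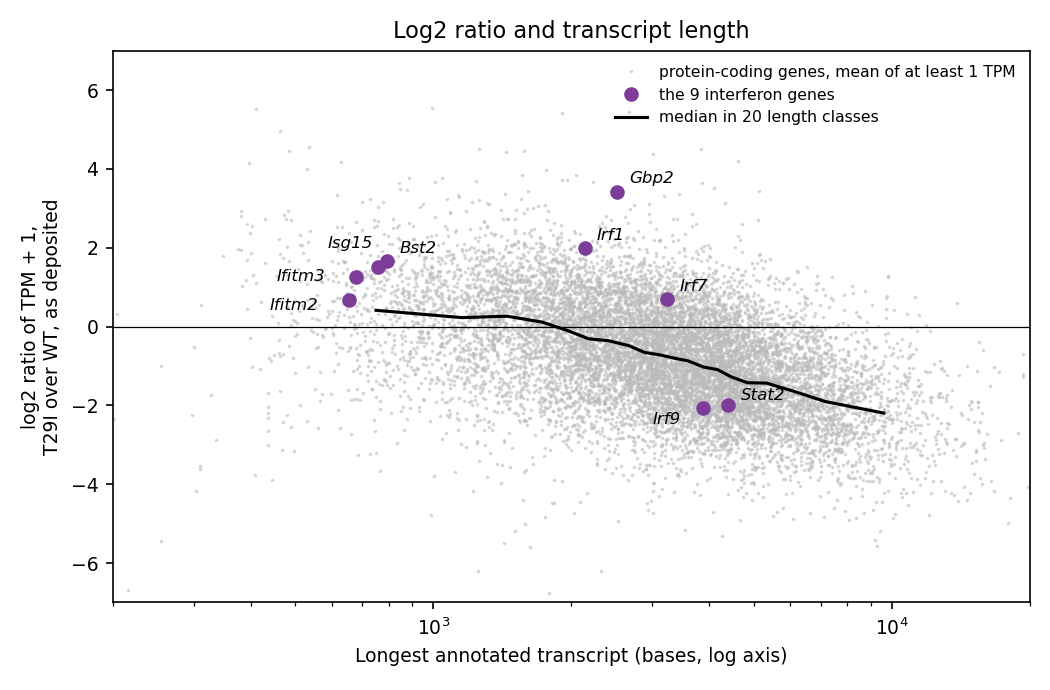
Each grey point is a protein-coding gene averaging 1 TPM or more, by its longest annotated transcript in bases (horizontal, log axis) and its log2 ratio of TPM + 1, T29I over WT, as deposited (vertical); the line joins medians of 20 length classes and purple points are the 9 members. Gbp2 at 3.42 and Irf1 at 1.98 lie far above the line at their lengths, Ifitm2 at 0.68 lies close to it, and Stat2 at -1.98 and Irf9 at -2.06 lie below it.

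Stat2 and Irf9, partners in ISGF3, were both lower in the T29I library and by a similar factor. Stat2 (ENSMUSG00000040033, chr10:128270559-128292849) encodes the subunit that carries the transactivation domain. It was at 3.37 TPM in the T29I library (132 reads, counting interval 2.82 to 3.998 TPM) and 16.3 TPM in the WT library (500 reads, 14.9 to 17.7 TPM). The intervals do not overlap, and the T29I value was 4.82-fold lower (3.97 to 5.89). Irf9 (ENSMUSG00000002325, chr14:55603571-55610030) encodes the subunit that recognises DNA. It was at 2.28 TPM in the T29I library (81 reads, 1.81 to 2.83 TPM) and 12.7 TPM in the WT library (354 reads, 11.4 to 14.1 TPM), or 5.56-fold lower (4.36 to 7.17). The relative log2 ratio was -1.09 for Stat2 and -1.16 for Irf9; the adjusted values of -0.90 and -0.99 stopped just short of the 2-fold mark. The Stat2 to Irf9 ratio within a library was 1.48 in T29I cells and 1.28 in WT cells, a difference of 1.15-fold whose interval of 0.839 to 1.59 spans equality. Irf9 shares 123 exon bases with its neighbour Rnf31 on the same strand, and the authors' treatment of such reads is not stated.

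Apart from those of Cxcl10 and of some cell type markers below, all counting intervals are exact 95% Poisson intervals, or exact conditional binomial intervals for folds. They rest on reads recovered from TPM and gene length, and cover counting error only. For 8 of the members both values came out as whole reads.

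Irf1 and Irf7, the other transcription factors of the list, were higher in the T29I library. Irf1 (ENSMUSG00000018899, chr11:53770014-53778374) encodes the factor through which many interferon gamma targets are switched on. It was at 69.4 TPM in the T29I library (1822 reads, 66.2 to 72.6 TPM) and 16.8 TPM in the WT library (347 reads, 15.1 to 18.7 TPM). The T29I level was 4.13-fold higher (3.68 to 4.64), with a relative log2 ratio of 2.88 and an adjusted value of 2.21. Irf1 thus moved against Irf9, a ratio within a library that no scaling between libraries can alter. Irf1 stood at 30.5 times the TPM of Irf9 in T29I cells and 1.33 times in WT cells, and at 20.6 times the TPM of Stat2 in T29I cells and 1.03 times in WT cells. The first of these ratios was 22.9-fold higher in T29I cells (17.4 to 30.3) and the second 19.9-fold higher (15.8 to 25.1). The longest transcript of Irf1, at 2137 bases, is shorter than those of Irf9 and Stat2, and these ratios are not adjusted for length.

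Irf7 (ENSMUSG00000025498, chr7:141262706-141266481) encodes the factor that amplifies type I interferon production and is itself a target of ISGF3. It was low in both libraries, at 1.25 TPM in T29I cells (0.811 to 1.85 TPM) and 0.383 TPM in WT cells (0.140 to 0.833 TPM). These intervals overlap slightly, while the fold of 3.27 had an interval of 1.31 to 9.76. Its values did not give whole reads at the annotated exon length of 3776 bases; the smallest whole counts with the observed ratio are 25 and 6 reads, which correspond to a length of 3020 bases, and the intervals use these. The relative and adjusted log2 ratios were 1.60 and 1.05.

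**Figure D2:**
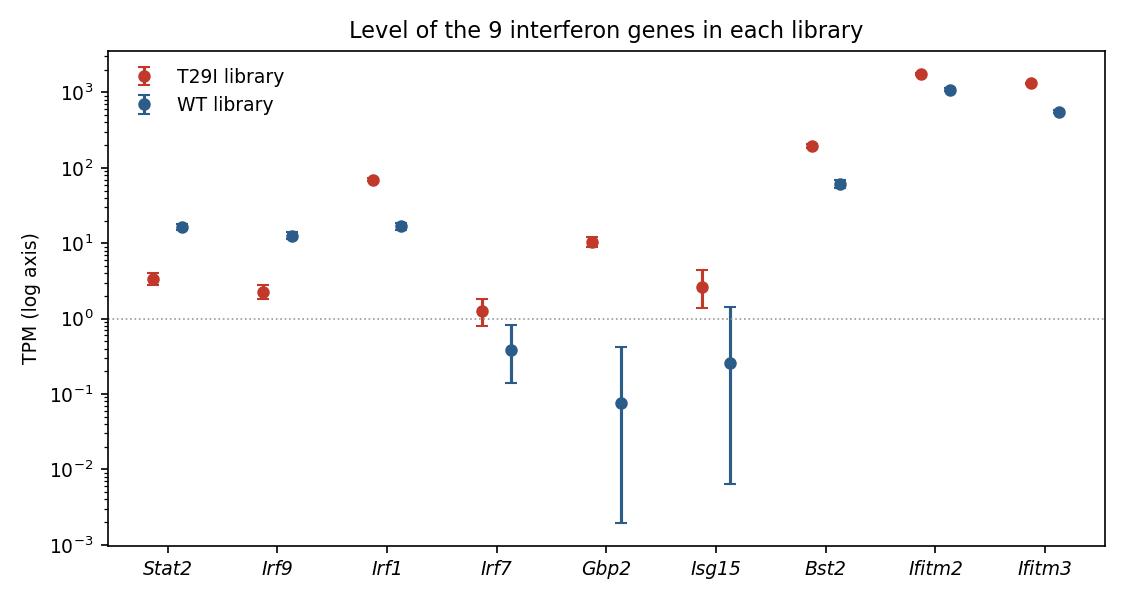
TPM of each member (vertical, log axis) in the T29I library (red, left of each pair) and the WT library (blue, right); bars are 95% counting intervals and the dotted line marks 1 TPM. Stat2 and Irf9 are lower in T29I cells, the other 7 are higher, and the intervals of Irf7 and Isg15 overlap between the libraries.

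Gbp2 showed the largest ratio of the 9 members, and it rested on 175 reads against 1. Gbp2 (ENSMUSG00000028270, chr3:142620602-142638008) encodes a guanylate-binding protein, a GTPase that attacks the vacuoles of intracellular pathogens and a textbook target of interferon gamma and IRF1. It was at 10.5 TPM in the T29I library (9.03 to 12.2 TPM) and 0.0766 TPM in the WT library (0.0019 to 0.427 TPM). The ratio was 138 with a counting interval of 24.4 to 5462; with 1 WT read, its upper bound is hardly limited. Its relative and adjusted log2 ratios were 4.32 and 4.39. Isg15 (ENSMUSG00000035692, chr4:156199424-156200818), the ubiquitin-like modifier attached to proteins during the interferon response, had 13 reads in the T29I library and 1 read in the WT library. That was 2.60 TPM in T29I cells (1.39 to 4.45 TPM) and 0.255 TPM in WT cells (0.0065 to 1.42 TPM), and the intervals just overlap. The fold of 10.2 had an interval of 1.53 to 434, with relative and adjusted log2 ratios of 2.42 and 1.32. Both genes were near the detection limit in WT cells, and Isg15 stayed low in T29I cells too.

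The membrane-anchored restriction factors were the abundant members. Bst2 (ENSMUSG00000046718, chr8:71534255-71537456) encodes tetherin, which holds budding virions at the cell surface. It was at 195 TPM in the T29I library (1161 reads, 184 to 206 TPM) and 61.0 TPM in the WT library (286 reads, 54.1 to 68.5 TPM), or 3.19-fold higher (2.80 to 3.64). In rank by TPM, Bst2 was gene 665 in the T29I library and gene 2680 in the WT library. The adjusted log2 ratio of 1.09, against 2.55 relative to the shift, shows how much of its difference lay along the length and GC trend.

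Ifitm2 and Ifitm3 encode small membrane proteins that block the fusion of viruses with endosomes, and Ifitm3 is known as Fragilis from its expression in germ cell precursors. Ifitm3 (ENSMUSG00000025492, chr7:141009586-141010770) was at 1321 TPM in the T29I library (5916 reads, 1287 to 1355 TPM) and 551 TPM in the WT library (1940 reads, 527 to 576 TPM). Ifitm2 (ENSMUSG00000060591, chr7:140954837-140955987) was at 1758 TPM in the T29I library (7606 reads, 1718 to 1798 TPM) and 1093 TPM in the WT library (3718 reads, 1059 to 1129 TPM). Both were thus among the most abundant transcripts in either library, Ifitm2 at rank 84 in T29I cells and 118 in WT cells, and Ifitm3 at rank 116 in T29I cells and 238 in WT cells. Ifitm3 was 2.40-fold higher in T29I cells (2.28 to 2.52), and Ifitm2 1.61-fold higher (1.55 to 1.67). The 2 genes parted after adjustment: the log2 ratio of Ifitm3 was 2.15 relative to the shift and 1.21 adjusted, whereas that of Ifitm2 was 1.58 and 0.25. As deposited, Ifitm2 at 0.68 also missed the 2-fold mark. The Ifitm3 to Ifitm2 ratio, between genes of nearly the same length, was 0.751 in T29I cells and 0.504 in WT cells, 1.49-fold higher in T29I cells (1.40 to 1.59). Ifitm2 shares 40.9% of its exon bases with the predicted gene Gm45717 on the same strand, which was at 2.75 TPM in T29I cells and 2.34 TPM in WT cells. How reads in the shared stretch were assigned is not stated.

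**Figure D3:**
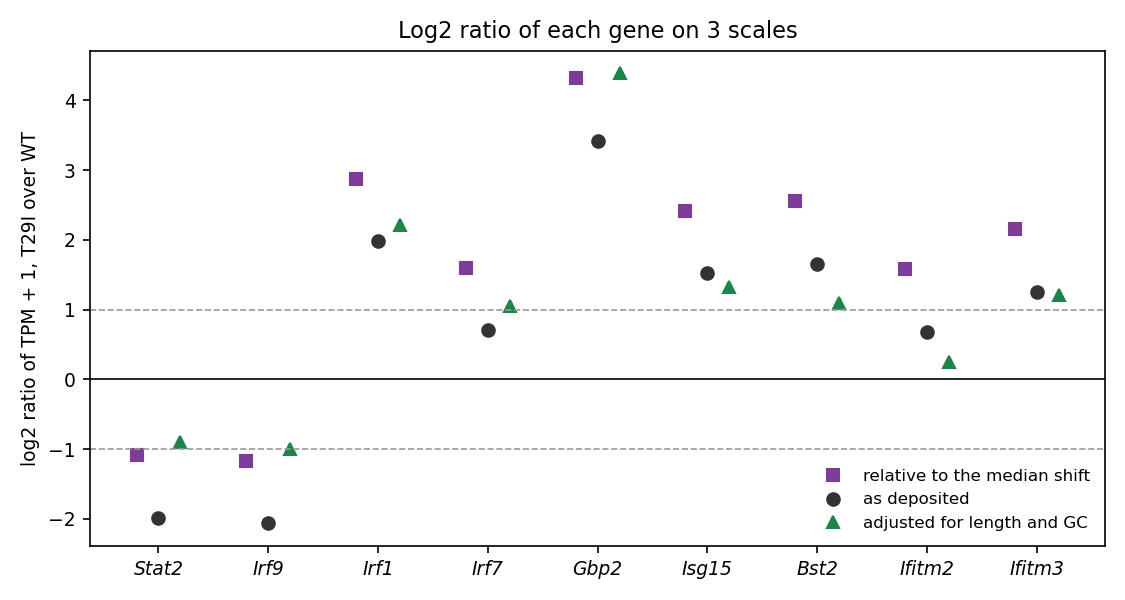
Log2 ratio of TPM + 1, T29I over WT (vertical), of each member relative to the median shift (purple squares), as deposited (black circles) and adjusted for length and GC content (green triangles); dashed lines mark 2-fold. Irf1, Gbp2, Isg15, Bst2 and Ifitm3 lie above the upper line on all 3 scales, Ifitm2 only relative to the shift, and Stat2 and Irf9 lie below the lower line on 2 scales and just inside it after adjustment.

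The count thus depended on the scale in a few members. As deposited, 5 of the 8 members above the filter were called higher and 2 lower, where 9.97% of all genes were higher and 45.7% lower. After adjustment 5 were higher and 0 lower, where 17.6% of 12920 genes were higher and 15.5% lower. The median of these 8 members was 2.29 relative to the shift and 1.15 adjusted, beside 0.055 and 0.040 over all genes tested. Gbp2 and Isg15, whose direction was fixed by passing the filter, are among the 8 in these counts and medians. Over all 9 members without the filter the medians were 2.15 and 1.09, with 7 higher and 2 lower relative to the shift and 6 higher and 0 lower after adjustment. No direction of any member turned between the 3 scales.

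The order of the levels was alike at the top and differed lower down. In both libraries Ifitm2 stood first, followed by Ifitm3, Bst2 and Irf1, with intervals that do not overlap between these neighbours. In T29I cells Gbp2 came next and was apart from its neighbours, and Stat2, Isg15, Irf9 and Irf7 followed, each overlapping the next in its counting interval. In WT cells Irf1 and Stat2 could not be told apart at 16.8 and 16.3 TPM, Irf9 came next, and Irf7, Isg15 and Gbp2 overlapped at the bottom.

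The IFITM family lies mostly in a cluster on chromosome 7, where the genes did not move as a block. Ifitm1, Ifitm2 and Ifitm3 lie within 55.9 kb, and Ifitm5 and Ifitm6 flank them. Ifitm1, another antiviral member, was at 609 TPM in T29I cells and 345 TPM in WT cells, with log2 ratios of 1.71 relative to the shift and 0.92 adjusted. Ifitm5, a bone-specific gene of the cluster, was at 1.58 TPM in T29I cells and 8.56 TPM in WT cells, from 8 and 34 reads, with log2 ratios of -0.99 and -2.56. Ifitm6 was at 0.669 TPM in T29I cells and 1.06 TPM in WT cells, from 4 and 5 reads. Away from the cluster, Ifitm7 was at 0.323 TPM in T29I cells and 2.55 TPM in WT cells, and Ifitm10 was at 0.0316 TPM in T29I cells and listed at 0 in WT cells. Irf7 begins 253 kb from the start of Ifitm3 on the same chromosome.

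Upstream of the members, the interferon genes were listed at 0 and the 5 measured receptor genes had a lower TPM in T29I cells. The list counts that follow are to be set beside the shares of all genes, 26.0% higher and 22.2% lower relative to the shift, 9.97% and 45.7% as deposited, and 17.6% and 15.5% after adjustment. All 11 listed ligand genes, type I, type II and type III, were at 0 in both libraries. A listed 0 does not show that a transcript was absent. Of the 5 receptor genes above the filter, 0 were at least 2-fold different in either direction relative to the shift or after adjustment, and 3 were lower as deposited. Among these 3, Ifnlr1 passed the filter only through the WT library, which fixed its direction. The median of the 5 was -0.24 relative to the shift and -0.071 adjusted. Ifnar1, a chain of the type I receptor, was at 6.98 TPM in T29I cells and 19.4 TPM in WT cells. Its partner chain Ifnar2 was at 6.14 TPM in T29I cells and 6.83 TPM in WT cells. Among 6 measured transducers, 2 were called lower relative to the shift, Stat2 and Irf9, while 4 were lower as deposited and 0 after adjustment. On none of these 3 scales was a transducer called higher. The kinases Jak1 and Tyk2 were at 5.17 and 8.16 TPM in T29I cells and at 20.8 and 12.8 TPM in WT cells. Their log2 ratios were -0.92 and 0.30 relative to the shift and -0.24 and 0.10 adjusted. Jak2 was at 0.301 TPM in T29I cells and 1.53 TPM in WT cells, under the filter. Stat3, better known as the transducer of LIF in ES cells, was at 9.09 TPM in T29I cells and 33.7 TPM in WT cells. Its log2 ratio was -0.89 relative to the shift and -0.30 adjusted.

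The inhibitors of the pathway were mixed. Of 7 measured negative regulators, 4 were called higher and 1 lower relative to the shift, 1 higher and 3 lower as deposited, and 1 higher and 0 lower after adjustment. Socs1, an inhibitor of JAK kinases that interferon gamma and IRF1 induce, was at 28.2 TPM in T29I cells and 6.47 TPM in WT cells, with log2 ratios of 2.86 and 1.75. Socs3, the most abundant of the list, was at 117 TPM in T29I cells and 108 TPM in WT cells, and its relative value of 1.01 became -0.23 after adjustment. The phosphatases Ptpn6 and Ptpn1 were at 39.1 and 33.9 TPM in T29I cells and at 29.4 and 28.3 TPM in WT cells. Their log2 ratios were 1.30 and 1.15 relative to the shift and 0.45 and 0.93 adjusted. Ptpn11 was at 10.7 TPM in T29I cells and 46.03 TPM in WT cells, with log2 ratios of -1.12 and -0.046. Within the IRF family, Irf3, the factor activated by nucleic acid sensors, was at 27.3 TPM in T29I cells and 26.5 TPM in WT cells. Of the 8 genes measured in the IRF list, which includes IRF2-binding proteins, 2 were higher (Irf1 and Irf2bp1) and 2 lower (Irf9 and Irf2bpl) relative to the shift, close to the shares of all genes. As deposited 1 was higher and 4 lower, and after adjustment 1 was higher and 1 lower. Irf2bp1 was at 65.4 TPM in T29I cells and 32.8 TPM in WT cells, with an adjusted log2 ratio of -0.0081. Irf2bpl was at 19.1 TPM in T29I cells and 81.2 TPM in WT cells, with an adjusted value of -1.94.

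Of 12 measured sensors of foreign nucleic acid and their adaptors, 3 were called higher and 2 lower relative to the shift, close to the 26.0% and 22.2% of all genes. As deposited 2 were higher and 6 lower, and after adjustment 2 were higher and 1 lower. Zbp1, a sensor of Z-form nucleic acid, was at 9.31 TPM in T29I cells (217 reads) and 0.546 TPM in WT cells (10 reads), with an adjusted log2 ratio of 3.57. Tmem173, which encodes the adaptor STING, was at 6.84 TPM in T29I cells and 0.335 TPM in WT cells, with an adjusted value of 3.03. Both passed the filter only through the T29I library, which fixed their direction. They are the 2 genes called higher as deposited and after adjustment, so no direction is read from those counts. Mb21d1, the partner of Tmem173, encodes the DNA sensor cGAS and went the other way. It was at 0.0367 TPM in T29I cells (1 read) and 2.99 TPM in WT cells (64 reads). Its log2 ratios were -1.05 relative to the shift and -0.47 adjusted, so that it was not called lower after adjustment. It passed the filter only through the WT library, which fixed its direction. The kinase Tbk1, which activates IRF3, was at 4.88 TPM in T29I cells and 31.5 TPM in WT cells, with log2 ratios of -1.57 relative to the shift and -1.24 adjusted. Dhx58, a relative of RIG-I, was at 2.17 TPM in T29I cells and 1.35 TPM in WT cells, with log2 ratios of 1.33 and 0.64. Mavs, the mitochondrial adaptor, was at 16.3 TPM in T29I cells and 26.8 TPM in WT cells.

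The enzymes that attach and remove ISG15 did not move together. Ube2l6, the conjugating enzyme, was at 56.1 TPM in the T29I library (740 reads) and 2.99 TPM in the WT library (31 reads), or 18.8-fold higher (13.1 to 27.8), with log2 ratios of 4.73 relative to the shift and 4.15 adjusted. Trim25, a ligase that acts with ISG15 and RIG-I, was at 23.8 TPM in T29I cells and 110.2 TPM in WT cells, with log2 ratios of -1.27 and -0.58. The activating enzyme gene Uba7 had 7 reads in T29I cells and 1 read in WT cells, the ligase gene Herc6 was at 0.531 TPM in T29I cells and 0.214 TPM in WT cells, and Usp18, which removes ISG15, had 2 reads in T29I cells and 1 read in WT cells. In T29I cells the TPM of Ube2l6 was far above that of Isg15, the modifier it transfers.

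Of 18 listed GTPases related to Gbp2, 5 reached 1 TPM in T29I cells and 1, Igtp, in WT cells. Gbp2, Irgm1 and Irgm2 passed the filter only through the T29I library, which fixed their direction, so no count is read from this list. Igtp, an immunity-related GTPase, was at 10.6 TPM in T29I cells (141 reads) and 1.14 TPM in WT cells (12 reads). Irgm1 was at 4.27 TPM in T29I cells and 0.663 TPM in WT cells, and Irgm2 was at 2.99 TPM in T29I cells and listed at 0 in WT cells. The annotated spans of Irgm2 and Igtp overlap on the same strand. Under the filter, Gbp3 had 30 reads in T29I cells and 3 in WT cells, and Gbp7 had 22 in T29I cells and 2 in WT cells. Gbp4 had 23 reads in T29I cells and 29 in WT cells. Copies within these families share sequence, and reads may be split between them. In the RefSeq windows, 10 of 11 genes of this list held the ISRE core, against 3.99% of all genes.

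Other classical interferon-stimulated genes went in both directions. Of 47 listed, 27 were measured, of which 12 were called higher and 2 lower relative to the shift. As deposited 7 were higher and 5 lower, and after adjustment 7 were higher and 2 lower. Their median was 0.88 relative to the shift, -0.019 as deposited and 0.61 adjusted. With 1 TPM added, the highest ratios were those of Parp10, a mono-ADP-ribosyltransferase, at 9.45 TPM in T29I cells and 0.586 TPM in WT cells, and Lgals3bp, a secreted glycoprotein, at 8.13 TPM in T29I cells and 0.474 TPM in WT cells. Ifi35 was at 35.7 TPM in T29I cells and 6.14 TPM in WT cells, and Oasl2, a relative of the oligoadenylate synthetases, at 6.71 TPM in T29I cells and 0.695 TPM in WT cells. Their adjusted log2 ratios lay between 2.14 and 3.11. Without the added TPM the highest fold was that of the chemokine gene Cxcl10, 18.9 from 2.26 TPM in T29I cells and 0.120 TPM in WT cells. Its values did not give whole reads, at 33.6 in T29I cells and 1.40 in WT cells. The interval of 4.48 to 1086 rests on these reads after rounding and is only approximate. Parp10, Lgals3bp, Oasl2 and Cxcl10 passed the filter only through the T29I library, which fixed their direction. They are among the genes counted as higher on each scale, and the counts are to be read with that limit. The lowest were Eif2ak2, which encodes the kinase PKR, at 0.237 TPM in T29I cells (8 reads) and 14.3 TPM in WT cells (379 reads), and Phf11d at 1.75 TPM in T29I cells and 30.2 TPM in WT cells. Eif2ak2 passed the filter only through the WT library, which fixed its direction. The same holds for Parp14, at 0.830 TPM in T29I cells and 3.44 TPM in WT cells, which was called lower as deposited. Ifi30, a lysosomal thiol reductase and the most abundant of the list by the mean of the libraries, was at 175 TPM in T29I cells and 110 TPM in WT cells. In WT cells Pml stood above it, at 70.4 TPM in T29I cells and 124 TPM in WT cells. Some of the most inducible genes of this kind were barely detected: Ifit3 was listed at 0 in both libraries, Ifit1 had 7 reads in T29I cells and was listed at 0 in WT cells, and Rsad2 had 5 reads in T29I cells and 10 in WT cells. Genes of antigen presentation, another group of interferon gamma targets, were called higher in 11 of 11 measured genes relative to the shift, in 9 as deposited and in 9 after adjustment. Of these 11, Psmb8, Psmb9 and Tap2 passed the filter only through the T29I library, which fixed their direction. The other listed gene, Nlrc5, was under the filter and went the other way in TPM, with 3 reads in T29I cells and 18 in WT cells. Psmb8, an immunoproteasome subunit, had the highest ratio, at 13.1 TPM in T29I cells and 0.0704 TPM in WT cells. Its values did not give whole reads, at 293 in T29I cells and 1.24 in WT cells, so the size of its ratio is uncertain. The peptide transporter subunit Tap2 followed, at 5.77 TPM in T29I cells and 0.815 TPM in WT cells. The immunoproteasome subunit Psmb10, the most abundant, was at 173 TPM in T29I cells and 53.4 TPM in WT cells, and Psmb9 at 4.92 TPM in T29I cells and 0.895 TPM in WT cells.

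**Figure D4:**
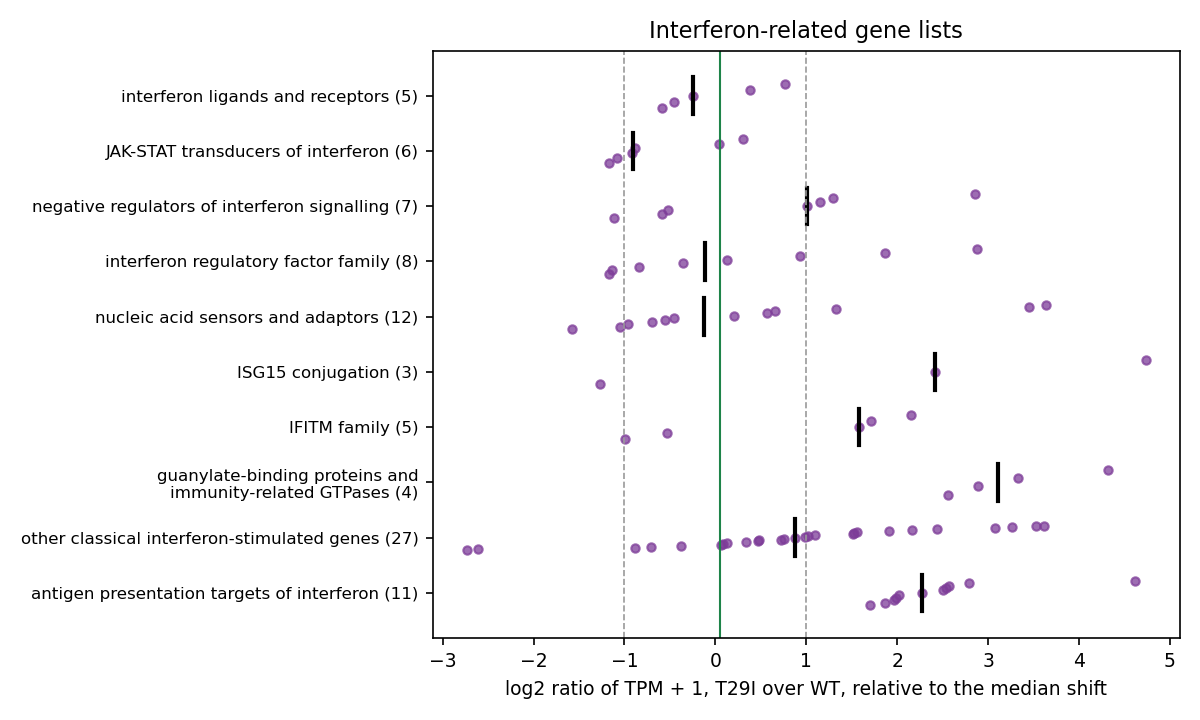
Log2 ratio of TPM + 1, T29I over WT, relative to the median shift (horizontal), of each measured gene of 10 interferon-related lists (rows, number measured in parentheses); black bars are list medians, the green line is the median of all genes averaging 1 TPM or more and dashed lines mark 2-fold. The transducers have a median of -0.91 and the negative regulators one of 1.01, which become -0.27 and 0.45 after adjustment. Gbp2, Irgm1 and Irgm2 in the GTPase row passed the filter only through the T29I library. Other rows hold genes that passed through 1 library only too, among them Isg15, whose value is the median of the ISG15 row. Lists share some genes, and Stat2, Irf9, Irf1, Isg15, Gbp2, Ifitm2 and Ifitm3 stand in them too.

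Both libraries carried the ES cell markers fixed for this comparison, with 8 of 8 measured and sums of 5009 TPM in T29I cells and 5624 TPM in WT cells, but single markers differed. In TPM 7 of the 8 were lower in T29I cells and 1, Utf1, was higher, at 2459 TPM in T29I cells and 972 TPM in WT cells. The pluripotency factor Nanog was at 140.3 TPM in T29I cells and 765 TPM in WT cells, 5.45-fold lower, with log2 ratios of -1.54 relative to the shift and -1.48 adjusted. Relative to the shift 1 marker was called higher (Utf1) and 1 lower (Nanog), and after adjustment 0 were higher and 2 lower (Nanog and Dppa4). Of 10 fibroblast markers, which would show feeder cells, 2 were measured, and Lum was listed at 0 in both libraries. The sums were 20.3 TPM in T29I cells and 8.30 TPM in WT cells, mostly from Thy1 at 17.6 TPM in T29I cells and 4.57 TPM in WT cells. Col1a1, Col1a2 and Twist2 were also higher in T29I cells. Fbn1 and Pdgfrb went the other way, at 0.125 and 0.166 TPM in T29I cells and 1.08 and 0.985 TPM in WT cells, as did Col3a1, Dcn and Postn. The fold intervals of Col1a1, Col1a2, Col3a1, Dcn and Postn span equality. The 10 blood and macrophage markers summed to 1281 TPM in T29I cells and 33.6 TPM in WT cells. Nearly all of the first came from Hbb-bs, at 1245 TPM in T29I cells and listed at 0 in WT cells. Hba-a1 was at 8.02 TPM in T29I cells and listed at 0 in WT cells. Csf1r and Spi1 were at 1.18 and 1.24 TPM in T29I cells and 0.315 and 0.429 TPM in WT cells, and Tyrobp was higher in T29I cells too. Cd68 was at 22.9 TPM in T29I cells and 27.1 TPM in WT cells, and Adgre1, Cd14 and Fcer1g were also lower in T29I cells. Ptprc, the common leukocyte marker, was at 0.0128 TPM in T29I cells and 0.0325 TPM in WT cells. The fold intervals of Tyrobp (4 reads in T29I cells and 2 in WT cells), Cd68, Cd14 and Ptprc span equality. Those of Col1a2, Cd14 and Ptprc rest on rounded reads and are only approximate. The part of these marker differences in the interferon values was not tested. In a bulk library, more cells that express a gene and more RNA per cell cannot be told apart. The T29I library held an estimated 15281656 reads assigned to genes and the WT library 16909997.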

How the data were processed

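Total RNA of 1 T29I and 1 WT library was sequenced. Isogen served for extraction and a stranded TruSeq total RNA kit for the libraries, with Ribo-Zero depletion of ribosomal RNA, per the labels' protocols. The authors deposited TPM values per gene, and each column sums to 1000000; aligner, counting tool and genome build were not given in the sources used here. Columns were assigned through the sample descriptions.

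Of 51826 gene identifiers, 51633 matched GENCODE M21 (GRCm38), the source of gene positions, lengths and GC content. TPM multiplied by merged exon length and divided by its commonest unit gave whole reads, within 0.05, for 81.3% of T29I values and 83.7% of WT values above 0 and up to 1000 reads. The estimated totals were 15281656 reads for T29I and 16909997 for WT. With 1 library per group there was no spread for a count model, and none was fitted.

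Log2 ratios used a pseudocount of 1 TPM, and calls needed a mean of at least 1 TPM and a 2-fold difference. The fit on length and GC content took up 44.9% of the variance. The steps were tested on simulated data. Members and lists were chosen with earlier results of these data known. The genes named were all 9 members, the whole transducer, ISG15 and IFITM lists, and up to 4 called genes per direction and the most abundant gene of each other list; further named genes were chosen after their values were seen. Of the transducer list, 1 gene is not reported here. Python 3.11.15, numpy 2.4.6, pandas 2.3.3 and scipy 1.17.1 were used.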

Additional observations from a re-analysis of the deposited data

How the results depend on the processing

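The 9 members kept their direction in each alternative in which their ratio was computed: 7 for each member except Isg15, with 6, and Irf7, which was under the filter and had 1. Sizes and counts moved, and genes of the other lists were not followed singly. No paired analysis was possible because each group has 1 library. Leaving out a library was likewise not possible.

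As deposited, without subtracting the shift, 1290 of all genes were called higher and 5909 lower. List medians were then -1.14 for ligands and receptors, -1.80 for transducers, -1.02 for sensors, 2.21 for GTPases, -0.019 for other interferon-stimulated genes and 1.37 for antigen presentation. With the filter at 1 TPM, the GTPase median rests on 4 genes, and Gbp2, Irgm1 and Irgm2 passed only through the T29I library. Their direction was fixed, so no direction is read from this median here or below. Other lists hold some such genes too. With TPM rescaled after leaving out 28 genes, the 20 most abundant of either library, 1662 genes were higher and 5496 lower, and the medians were -1.05 for ligands and receptors, -1.66 for transducers, 2.55 for GTPases, 0.098 for other interferon-stimulated genes and 1.56 for antigen presentation. The adjustment for length and GC content left 0 members called lower. The medians were then -0.27 for transducers, 0.45 for negative regulators and 1.34 for antigen presentation. With a pseudocount of 5 TPM 0 members were called lower as well, 1584 of all genes were lower, and the medians were 1.75 for GTPases and 1.67 for antigen presentation; with 0.1 TPM the GTPase median was 4.96. Without a filter on low values 5064 genes were called higher and the GTPase median was 1.47. Gbp2 and Isg15, with 1 WT read each, moved most with the pseudocount: the log2 ratio was 6.85 for Gbp2 and 3.87 for Isg15 with 0.1 TPM, and 2.33 for Gbp2 and 1.25 for Isg15 with 5 TPM. Between 5 and 7 members were called higher in every setting. In settings with a filter, the direction of Gbp2, and of Isg15 where it passed, was fixed by passing it.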
